A study of Mus musculus with 4 samples.

Results

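The genes described here are 10 receptor genes of natural killer (NK) cells, some of which are also used by T cells in skin. The 10 genes are *Klrk1*, *Klrd1*, *Klrc1*, *Klre1*, *Kir3dl1*, *Klrg1*, *Klrb1b*, *Klrb1c*, *Cd160* and *Ncr1*. They were chosen by symbol and not by a cut on their levels, but with earlier results of these data known. All 10 were listed in each of the 4 single-cell count tables, among 21739 gene symbols in all. The libraries came from periwound skin of C57/BL6j mice aged 6 weeks, taken 7 days after an 8 mm full-thickness punch wound. The control group (Control 1 and Control 2) received PBS under the skin around the wound edge. The hucMSC-Exosomes group (hucMSC-Exo 1 and hucMSC-Exo 2) received 100 µg of exosomes from human umbilical cord mesenchymal stem cells at 4 injection sites, and both groups were injected every 48 hours. Each library was 1 mouse, so n = 2 mice per group and n = 4 libraries for comparisons between cell types. All mice carried the wound and the injections, and no unwounded skin entered the comparisons.

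NK receptors fall into activating and inhibitory members, and a lymphocyte reads the balance of the 2 groups when it meets another cell. *Klrk1* encodes NKG2D, an activating receptor for stress-induced ligands that signals through the adaptor DAP10 (*Hcst*). *Klrd1* encodes CD94, the shared partner chain of NKG2A and its close relatives. *Klre1* encodes a lectin-like receptor that pairs with KLRI1 or KLRI2 instead. *Klrc1* encodes NKG2A, whose pair with CD94 binds the nonclassical class I molecule Qa-1 and inhibits the cell. *Klrb1b* and *Klrb1c* are NKR-P1 lectins, *Klrb1c* being the gene of the antigen by which NK cells of C57BL/6 mice are usually recognised. *Ncr1* encodes NKp46, *Kir3dl1* is a mouse member of the killer immunoglobulin-like receptor family, *Klrg1* is an inhibitory receptor for cadherins and *Cd160* binds the herpesvirus entry mediator. Mouse epidermis holds dendritic epidermal T cells, gamma delta T cells that sit among keratinocytes and carry NKG2D, while dermal gamma delta T cells are known as a source of IL-17.

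In the mm10 assembly (GRCm38) 7 of the genes lie on chromosome 6. *Klrg1* stands apart at chr6:122270596-122282882 on the minus strand. The others follow each other in the NK gene complex, with *Klrb1c* at chr6:128778485-128789215 and *Klrb1b* at chr6:128813706-128826331, both on the minus strand, *Klre1* at chr6:129577905-129585827 and *Klrd1* at chr6:129591782-129598775, both on the plus strand, and *Klrk1* at chr6:129610323-129623864 and *Klrc1* at chr6:129666015-129678973, both on the minus strand. *Cd160* lies at chr3:96798763-96829351 on the minus strand, *Ncr1* at chr7:4337724-4345164 on the plus strand and *Kir3dl1* at chrX:136517999-136534309 on the plus strand. All 10 are annotated as protein coding. *Klrb1b* and *Klrb1c*, *Klrc1* and *Klrc2*, and *Kir3dl1* and *Kir3dl2* are close paralogs that may share reads, so the split of UMIs within each of these pairs is uncertain.

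Cells were sorted in silico by UMIs of marker genes, none of which was a member. The NK gate (no *Cd3* UMI, with *Tyrobp*, *Nkg7* and at least 1 UMI of *Eomes*, *Gzma* or *Prf1*) held 143 cells, 25 to 54 per library. The epidermal gamma delta gate (DETC: *Cd3* and *Trdc* without *Trac*, and epidermal markers such as *Itgae*, *Cd7* and *Fcer1g* above type 17 markers) held 869 cells, 183 to 262 per library. The IL-17 gamma delta gate (GD17: the same start, with type 17 markers such as *Il17a*, *Il23r* and *Blk* above epidermal ones) held 444 cells, 32 to 202 per library, and the CD8 gate (*Cd3*, *Cd8a* or *Cd8b1*, and alpha beta receptor genes without *Trdc* or *Cd4*) held 158 cells, 28 to 54 per library. Checked on genes that did not define it, the DETC gate had *Trdv4*, the delta chain of the epidermal receptor, in 88.1% of cells, against 68.5% of the GD17 gate and 0.633% of the CD8 gate. *Trdv4* therefore did not separate the gamma delta gates cleanly, while *Tcrg-V5*, one of the epidermal gate's own genes, was seen in 16.7% of its cells. *Trdc* was found in 16.8% of the NK gate. A neutrophil gate (806 cells), a C1q macrophage gate (980 cells) and a CD4 gate (353 cells) served as background.

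The kept cells numbered 952 to 2074 per library (6443 of 7178), with 4779405 to 11243740 UMIs per library and a median of 3747 to 4392.5 UMIs per cell. Free RNA was present throughout: *Krt14*, a keratinocyte gene, had a UMI in 71.6% to 87.2% of kept cells. Pairs of libraries shared 0 to 2 cell barcodes, 6 in all. The tissue labels name intestine whereas the cell type label and protocol name skin. Keratinocyte genes held 20544 UMIs in kept cells (5 of 5 genes seen), while gut epithelial genes held 23 UMIs (3 of 7 genes seen). The control and exosome labels follow the sample titles, and the letters in the deposited names pair the libraries differently. Every direction between the groups, and every count of genes called or not called between them, rests on the titles. Neutrophils made up 4.10% and 4.17% of kept cells in the libraries numbered 1 (control and exosome) and 12.8% and 22.1% in those numbered 2, and *Krt14* was found in 87.2% and 81.6% against 71.6% and 71.7%. NK receptor levels below are counts per 1000000 UMIs (CPM) of a gate in a library. Values for single libraries are always given with the control pair first and the exosome pair second, each in replicate order. As this is 3′ UMI counting, levels are compared between cells for 1 gene and not between genes.

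NK cells carried the broadest receptor set, epidermal gamma delta T cells the second broadest and IL-17 gamma delta T cells the narrowest. The mean number of the 10 genes with a UMI in a cell was 4.64 in NK cells, 2.92 in DETC, 1.71 in CD8 T cells and 0.912 in GD17 cells, against 0.771 in CD4 T cells, 0.120 in macrophages and 0.00620 in neutrophils. Per library the NK means ran from 4.12 to 4.94 and the DETC means from 2.57 to 3.16, so these 2 gates did not overlap, and GD17 (0.812 to 0.930) lay below CD8 (1.48 to 1.89). At least 5 of the genes were seen in 53.8% of NK cells, 9.78% of DETC, 0.633% of CD8 T cells and 0% of the 444 GD17 cells. None was seen in 0.699% of NK cells, 2.53% of DETC, 22.2% of CD8 T cells and 28.6% of GD17 cells. The gates differed in depth (median 4700 UMIs in NK, 3351 in DETC, 4538 in GD17 and 4043 in CD8), and after each cell was thinned to 1000 UMIs the means were 1.82, 1.34, 0.361 and 0.713 in the order NK, DETC, GD17 and CD8. Thinning left out 6 DETC and 1 cell in each of the other 3 gates, which were shallower.

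**Figure D1:**
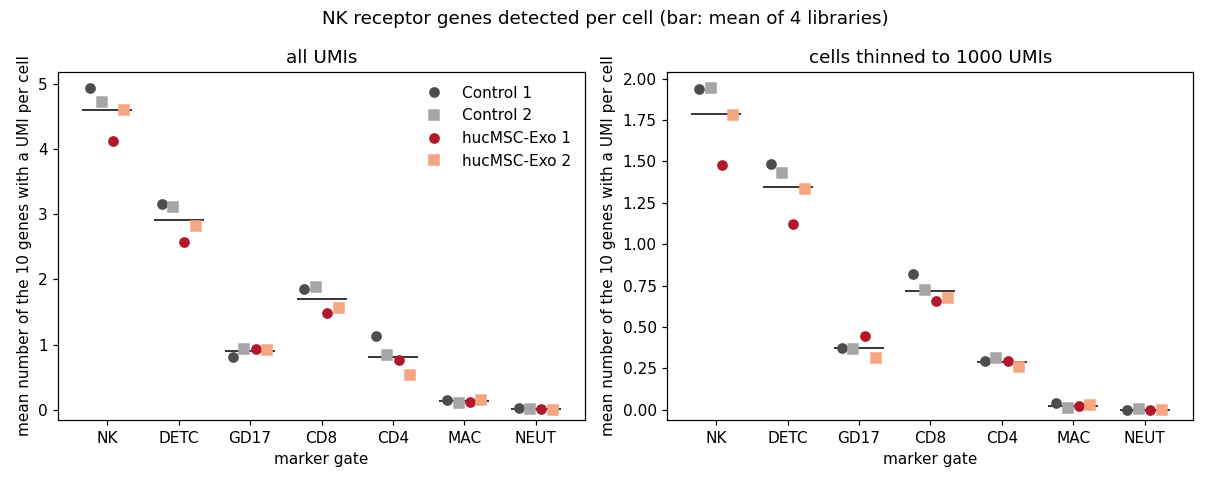
Mean number of the 10 NK receptor genes with at least 1 UMI in a cell (vertical axis, genes per cell) for each marker gate, with all UMIs on the left and with every cell thinned to 1000 UMIs on the right; points are the 4 libraries and bars their mean. NK cells stand highest (4.12 to 4.94 before thinning), followed by DETC, CD8 and GD17, and macrophages and neutrophils lie near 0.

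**Figure D2:**
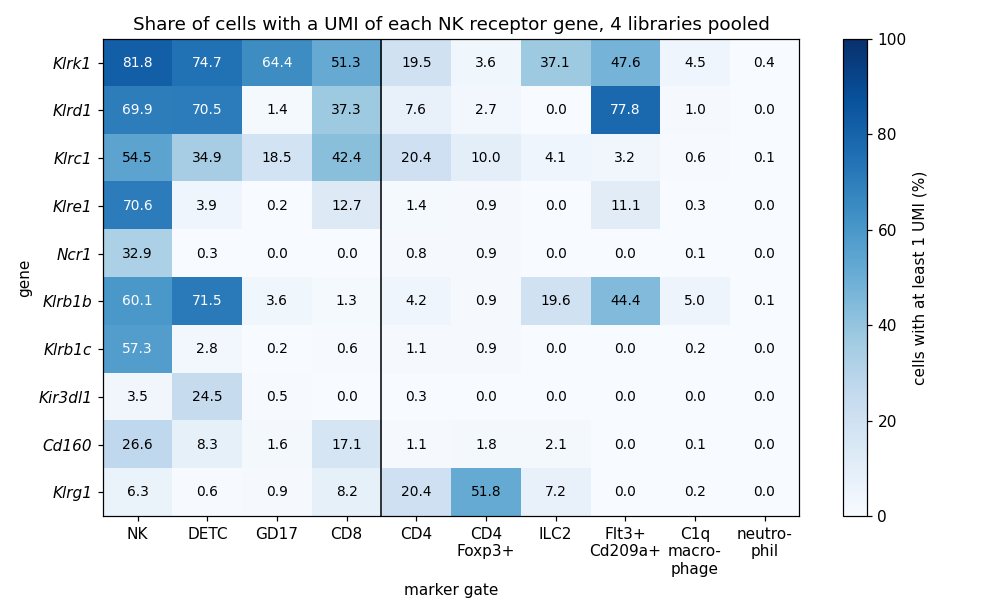
Share of cells with at least 1 UMI of each NK receptor gene (rows, percent of cells, 4 libraries pooled) in the marker gates (columns). *Klrk1* is found in 51.3% to 81.8% of cells in the 4 lymphocyte gates under study, whereas *Ncr1* reaches 32.9% in NK cells and is at or below 0.345% in DETC, GD17 and CD8 cells.

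*Klrk1*, the activating receptor NKG2D, was the member spread most evenly over the 4 gates. Its CPM per library was 510.3, 526, 386 and 501 in NK cells. In DETC the same libraries gave 535, 494, 399.6 and 449 CPM. In GD17 cells they gave 224, 362, 471 and 300.02 CPM, and in CD8 T cells 229, 250.4, 459 and 311 CPM. Every pair of neighbours in this order overlapped between libraries, with means of 481 ± 64.0, 469 ± 58.1, 339 ± 104 and 312 ± 104 CPM (SD, n = 4). At least 1 *Klrk1* UMI was found in 81.8% of NK cells (95% exact interval 74.5% to 87.8%), 74.7% of DETC, 64.4% of GD17 cells and 51.3% of CD8 T cells, against 19.5% of CD4 T cells, 4.49% of macrophages and 0.372% of neutrophils. These and all later intervals cover counting error only.

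By the quasi-likelihood test of edgeR on the summed UMIs, with the library as a block and adjustment over 4472 genes, *Klrk1* was higher in NK than in GD17 cells (log2 difference 0.58, SE 0.20, adjusted p = 0.0319) and higher in NK than in CD8 T cells (0.70, SE 0.22, adjusted p = 0.0464). Both *Klrk1* calls were lost under several alternatives. Against GD17 the call was lost without Control 1 (0.41, adjusted p = 0.176), without Control 2 (0.55, adjusted p = 0.119) without hucMSC-Exo 2 (0.48, adjusted p = 0.193) and with no library block (0.56, adjusted p = 0.0509), and over all alternatives the adjusted p ran from 4.35e-04 to 0.193. Against CD8 it was lost without Control 1 (0.58, adjusted p = 0.174), Control 2 (0.54, adjusted p = 0.292) and hucMSC-Exo 2 (0.68, adjusted p = 0.183), and in unsupervised clusters (0.41, adjusted p = 0.186), with a range of 0.00230 to 0.292. It was also lost with cells over 3000 genes kept (adjusted p = 0.0511), without the highest 10% of doublet scores (adjusted p = 0.0876), without *Trdc* cells in the NK gate (adjusted p = 0.0508) and with no library block (adjusted p = 0.0753). *Klrk1* in NK and DETC differed by 0.23 on the log2 scale (SE 0.19, adjusted p = 0.375). DETC exceeded GD17 cells by 0.35 (SE 0.19, adjusted p = 0.135), a difference that passed without hucMSC-Exo 1 (0.57, adjusted p = 0.0103) and in unsupervised clusters (0.55, adjusted p = 0.00209) within an adjusted p range of 0.00209 to 0.582. DETC exceeded CD8 T cells by 0.47 (SE 0.21, adjusted p = 0.0833), which passed without hucMSC-Exo 1 (0.73, adjusted p = 0.00386) and with no filter on low counts (0.62, adjusted p = 0.00660, range 0.00386 to 0.327).

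*Klrd1*, the CD94 chain, split the gamma delta T cells. In DETC its CPM was 590.4, 444, 296 and 506, whereas in GD17 cells it was 6.78, 0, 2.06 and 7.34. NK cells had 365, 375, 459 and 286 CPM and CD8 T cells 192, 156, 113 and 114. DETC and NK cells overlapped, and every NK library lay above every CD8 library, which in turn lay above every GD17 library. *Klrd1* was seen in 70.5% of DETC (95% exact interval 67.4% to 73.6%) and 69.9% of NK cells, but in 1.35% of GD17 cells (0.497% to 2.92%), close to the 1.02% of macrophages. DETC exceeded GD17 cells by 6.41 (log2, SE 0.34, adjusted p = 1.0003e-12, edgeR) and NK exceeded GD17 cells by 6.31 (SE 0.36, adjusted p = 2.89e-12). CD8 T cells exceeded GD17 cells by 4.90 (SE 0.41, adjusted p = 4.85e-09). Without hucMSC-Exo 2, which held 8 of the 10 GD17 UMIs of *Klrd1*, these differences became 7.47, 7.53 and 6.13. Over all alternatives they ran from 4.76 to 8.37, from 4.72 to 8.10 and from 3.95 to 6.73. In the unsupervised clusters named GD17, *Klrd1* was found in 0.571% of 701 cells, 11.7% of 111 cells and 60.7% of 28 cells. *Klrd1* was also higher in DETC than in CD8 T cells (1.503, SE 0.23, adjusted p = 1.19e-05) and in NK than in CD8 T cells (1.40, SE 0.25, adjusted p = 4.19e-04), the latter lost in unsupervised clusters (0.77, adjusted p = 0.165, range over alternatives 2.49e-08 to 0.165). NK and DETC differed by -0.10 (SE 0.20, adjusted p = 0.745).

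*Klrc1*, the inhibitory NKG2A chain that needs CD94 to reach the surface, did not follow *Klrd1* across the gates. Its CPM was 296, 235, 410.4 and 185 in NK cells and 140.1, 307, 226 and 193 in CD8 T cells, in the same order of libraries. In DETC it was 132, 200.2, 163 and 155, and in GD17 cells 33.9, 81.3, 82.3 and 63.3. NK and CD8 overlapped, CD8 and DETC overlapped, and every DETC library exceeded every GD17 library. Unlike *Klrd1*, *Klrc1* was detected in 18.5% of GD17 cells (14.97% to 22.4%), beside 54.5% of NK cells, 42.4% of CD8 T cells, 34.9% of DETC, 20.4% of CD4 T cells and 0.612% of macrophages. NK cells exceeded DETC by 0.93 (log2, SE 0.21, adjusted p = 8.65e-04) and GD17 cells by 2.07 (SE 0.23, adjusted p = 2.26e-07). DETC exceeded GD17 cells by 1.13 (SE 0.21, adjusted p = 1.14e-04), and CD8 T cells exceeded GD17 cells by 1.71 (SE 0.24, adjusted p = 7.10e-06). *Klrc1* in DETC was 0.58 lower than in CD8 T cells (log2 difference -0.58, SE 0.21, adjusted p = 0.0336), a call lost without Control 2 (-0.46, adjusted p = 0.170), without hucMSC-Exo 1 (adjusted p = 0.0704) and without hucMSC-Exo 2 (adjusted p = 0.0762), with a range over alternatives of 0.00707 to 0.214. It was also lost by DESeq2 (adjusted p = 0.0749), with DESeq2 size factors in edgeR (adjusted p = 0.0503), with no filter on low counts (-0.43, adjusted p = 0.214), without called doublets (adjusted p = 0.0528) and with no library block (adjusted p = 0.0658). NK and CD8 differed by 0.35 (SE 0.22, adjusted p = 0.409).

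*Klre1*, the neighbour of *Klrd1* on chromosome 6, was mainly an NK gene. Its CPM was 309, 362, 137 and 454 in NK cells, 22.1, 102, 7.06 and 49.4 in CD8 T cells, 14.4, 13.3, 6.49 and 14.1 in DETC and 0, 0, 0 and 0.917 in GD17 cells. The NK libraries lay above all CD8 libraries, CD8 and DETC overlapped, and the single *Klre1* UMI of the GD17 gate lay below every DETC library. The share of cells with a UMI was 70.6% in NK, 12.7% in CD8, 3.91% in DETC and 0.225% in GD17 cells. NK cells exceeded DETC by 4.82 (log2, SE 0.27, adjusted p = 2.07e-12) and CD8 T cells by 2.70 (SE 0.28, adjusted p = 2.11e-07, 3.48 without Control 2). *Klre1* was lower in DETC than in CD8 T cells (-2.11, SE 0.37, adjusted p = 6.62e-05), and by less without Control 2 (-1.29, adjusted p = 0.0415, the highest over the alternatives, from 1.03e-06). In the Control 2 CD8 gate, the one with the highest *Klre1*, *Eomes* was found in 35.2% of cells against 3.03% to 13.95% in the other libraries, and the neutrophil genes *S100a8* and *S100a9* summed to 1263 CPM against 22.1 to 123. The part of these values in the *Klre1* level was not tested. Against the single GD17 UMI the ratio of pooled levels was 732 for NK (95% counting interval 130.1 to 29008), 26.8 for DETC (4.54 to 1085) and 121 for CD8 (20.5 to 4888), and all 3 comparisons passed the edgeR test (adjusted p = 7.38e-13, 6.71e-05 and 1.58e-07).

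*Ncr1* and *Klrb1c* were the members closest to NK-only. *Ncr1* had 252, 70.4, 88.5 and 149 CPM in NK cells, and 2.88, 2.67, 0 and 4.23 CPM in DETC. No UMI of *Ncr1* was found in 444 GD17 cells, which allows a share of cells with a UMI of up to 0.676% (3 of 444 cells), or in 158 CD8 T cells, which allows up to 1.90% (3 of 158 cells). These limits concern cells with a UMI and not cells that express the gene. It was detected in 32.9% of NK cells (95% exact interval 25.2% to 41.2%) and 0.345% of DETC, the macrophage share being 0.102%. NK cells exceeded DETC by 5.91 (log2, SE 0.48, adjusted p = 2.78e-08, edgeR). *Ncr1* in NK cells was at least 94.6-fold higher than in GD17 cells and at least 32.1-fold higher than in CD8 T cells, taken against 3 UMIs per pooled gate (adjusted p = 7.91e-08 and 1.16e-05). The 8 *Ncr1* UMIs in DETC were at least 1.79-fold above GD17 (adjusted p = 0.0662), a difference that passed with cells over 3000 genes kept (adjusted p = 0.0487, range 0.0487 to 0.315).

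*Klrb1c* had 302, 215, 137 and 263 CPM in NK cells and 8.65, 17.3, 3.89 and 5.63 CPM in DETC, without overlap. GD17 and CD8 cells each held 1 UMI of it. It was found in 57.3% of NK cells, 2.76% of DETC, 0.225% of GD17 cells and 0.633% of CD8 T cells. NK cells exceeded DETC by 4.85 (log2, SE 0.32, adjusted p = 5.36e-11), and the pooled ratio was 506 to GD17 (95% counting interval 89.7 to 20109, adjusted p = 3.01e-11) and 172 to CD8 (30.4 to 6822, adjusted p = 1.26e-08). DETC stood 19.4-fold above GD17 (3.22 to 794, adjusted p = 0.00224) and 6.59-fold above CD8 (1.09 to 269, adjusted p = 0.104), the latter passing without Control 1 alone (adjusted p = 0.0497, range 0.0497 to 0.964). In the hucMSC-Exo 1 NK gate, where *Klrb1c* and *Klre1* were lowest, *Gzma* was found in 44.0% of 25 cells against 81.5% to 84.4% in the other libraries, and *Eomes* in 36.0% against 56.2% to 64.8%. The part of this difference in those values was not tested.

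*Klrb1b*, the neighbour and paralog of *Klrb1c*, had the opposite order of the same gates. Its CPM was 414, 440.3, 409 and 445 in DETC and 321, 315, 241 and 221 in NK cells, with no overlap, whereas GD17 cells had 6.78, 10.7, 10.3 and 15.6 and CD8 T cells 7.37, 0, 28.2 and 0. The DETC mean was 427 ± 18.2 CPM (SD, n = 4). It was found in 71.5% of DETC (95% exact interval 68.3% to 74.4%) and 60.1% of NK cells. The shares in GD17 (3.60%) and CD8 (1.27%) lay below the 5% of macrophages but above the 0.124% of neutrophils. Median depth was 7180 UMIs in macrophages, 2156 in neutrophils, 4538 in GD17 and 4043 in CD8 cells. Whether the GD17 and CD8 shares are background was not settled by these gates. DETC exceeded GD17 cells by 4.94 (log2, SE 0.29, adjusted p = 5.22e-12) and CD8 T cells by 5.77 (SE 0.41, adjusted p = 1.73e-10). NK cells exceeded GD17 cells by 4.49 (SE 0.32, adjusted p = 1.52e-10) and CD8 T cells by 5.32 (SE 0.45, adjusted p = 1.03e-08). The CD8 gate held 5 *Klrb1b* UMIs, and the differences to CD8 moved between 5.14 (without Control 2) and 7.65 (without hucMSC-Exo 1) for DETC and between 4.61 and 7.24 for NK. The NK to DETC difference of *Klrb1b* was -0.44 (SE 0.21, adjusted p = 0.112). It passed with no filter on low counts (-0.56, adjusted p = 0.0355) and in unsupervised clusters (-0.76, adjusted p = 0.00498), within a range of 0.00498 to 0.314. CD8 and GD17 differed by -0.83 (SE 0.71, adjusted p = 0.476), or by -2.81 without hucMSC-Exo 1 (adjusted p = 0.0437, range 0.0437 to 0.985).

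*Kir3dl1* had its highest level in the DETC gate. Its CPM was 111, 77.4, 72.7 and 76.1 in DETC, 18.9, 0, 16.1 and 5.97 in NK cells, 0, 0, 0 and 2.75 in GD17 cells and 0 in all CD8 libraries. Every DETC library lay above every NK library. A UMI was found in 24.5% of DETC (21.7% to 27.5%), 3.497% of NK cells, 0.450% of GD17 cells and 0 of 158 CD8 T cells, which allows a share of cells with a UMI of up to 1.90%, with 0 of 980 macrophages. *Kir3dl1* was lower in NK cells than in DETC by 3.12 on the log2 scale (-3.12, SE 0.50, adjusted p = 4.69e-05), or by 2.52 without Control 2 (-2.52). In unsupervised clusters this difference was -1.68. There, 1 cluster of 54 cells named NK had *Kir3dl1* in 24.1% of cells (81.4 CPM), beside 31.3% (116 CPM) in the largest DETC cluster. The other 2 clusters named NK had no *Kir3dl1* UMI. The cluster of 54 cells had 3 NK and 2 DETC markers, against 6 and 1 in each of the other 2. Its *Klre1* level was 44.4 CPM against 399 and 392, and *Klrb1c* was found in 18.5% of its cells against 64.2% and 56.25%. *Ncr1* had 37.01 CPM against 202 and 44.6. Whether its cells are NK cells was not tested. The pooled DETC level was 63.2-fold that of GD17 (95% counting interval 21.4 to 308, adjusted p = 2.19e-08) and at least 21.4-fold higher than CD8 (adjusted p = 1.70e-06). The 6 NK UMIs gave a ratio of 5.85 to GD17 (1.25 to 36.2), not called (adjusted p = 0.0819) but called without Control 2 (adjusted p = 0.0487) and in unsupervised clusters (adjusted p = 1.73e-04, range 1.73e-04 to 0.353), and a level at least 1.99-fold above CD8 (adjusted p = 0.124). Of all 402 *Kir3dl1* UMIs in kept cells 70.4% lay in the DETC gate.

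*Cd160*, a receptor with an immunoglobulin fold, had 88.2, 63.7, 105 and 95.5 CPM in NK cells, 38.5, 36.0, 22.1 and 22.5 in DETC, 20.3, 0, 6.17 and 4.59 in GD17 cells and 295, 19.0, 42.3 and 44.5 in CD8 T cells. NK libraries lay above DETC libraries and DETC above GD17, while the CD8 values spread over the range of all the others. The CD8 level of Control 1 came from 28 cells, 46.4% of which had a *Cd160* UMI, against a lowest share of 7.41% in another library. NK cells exceeded DETC by 1.76 (log2, SE 0.46, adjusted p = 0.00389) and GD17 cells by 3.90 (SE 0.64, adjusted p = 4.17e-05). DETC exceeded GD17 by 2.14 (SE 0.64, adjusted p = 0.00793), lost without hucMSC-Exo 2 (2.13, adjusted p = 0.0517, range 1.02e-05 to 0.0517). CD8 exceeded GD17 by 3.76 (SE 0.64, adjusted p = 1.15e-04), or by 3.06 without Control 1. *Cd160* was lower in DETC than in CD8 (-1.62, SE 0.46, adjusted p = 0.00768), and without Control 1 this difference was -0.43 (adjusted p = 0.547, range 7.23e-06 to 0.547). The call was also lost by DESeq2 (-1.27, adjusted p = 0.0776). NK and CD8 differed by 0.14 (SE 0.47, adjusted p = 0.915).

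*Klrg1* was scarce in all 4 gates and did not pass the filter on low counts. Its CPM was 29.5, 64.5, 0 and 9.88 in CD8 T cells, 12.6, 33.5, 8.05 and 5.97 in NK cells, 3.85, 2.67, 0 and 1.41 in DETC and 0, 6.42, 0 and 0.917 in GD17 cells. CD8 and NK overlapped, and all NK libraries lay above all DETC libraries. The background gate of CD4 T cells held more of it, with 46.6, 138, 108 and 116 CPM, and 46.9% of the 467 *Klrg1* UMIs lay there against 3.00% in NK cells. *Klrg1* was found in 20.4% of CD4 T cells, 8.23% of CD8 T cells, 6.29% of NK cells, 0.575% of DETC and 0.901% of GD17 cells. With no filter on low counts it was higher in NK than in DETC (2.75, adjusted p = 0.00340) and GD17 cells (2.62, adjusted p = 0.0205), higher in CD8 than in GD17 cells (3.33, adjusted p = 4.00e-04) and lower in DETC than in CD8 (-3.46, adjusted p = 1.09e-05). No such value exists for it under the other alternatives.

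**Figure D3:**
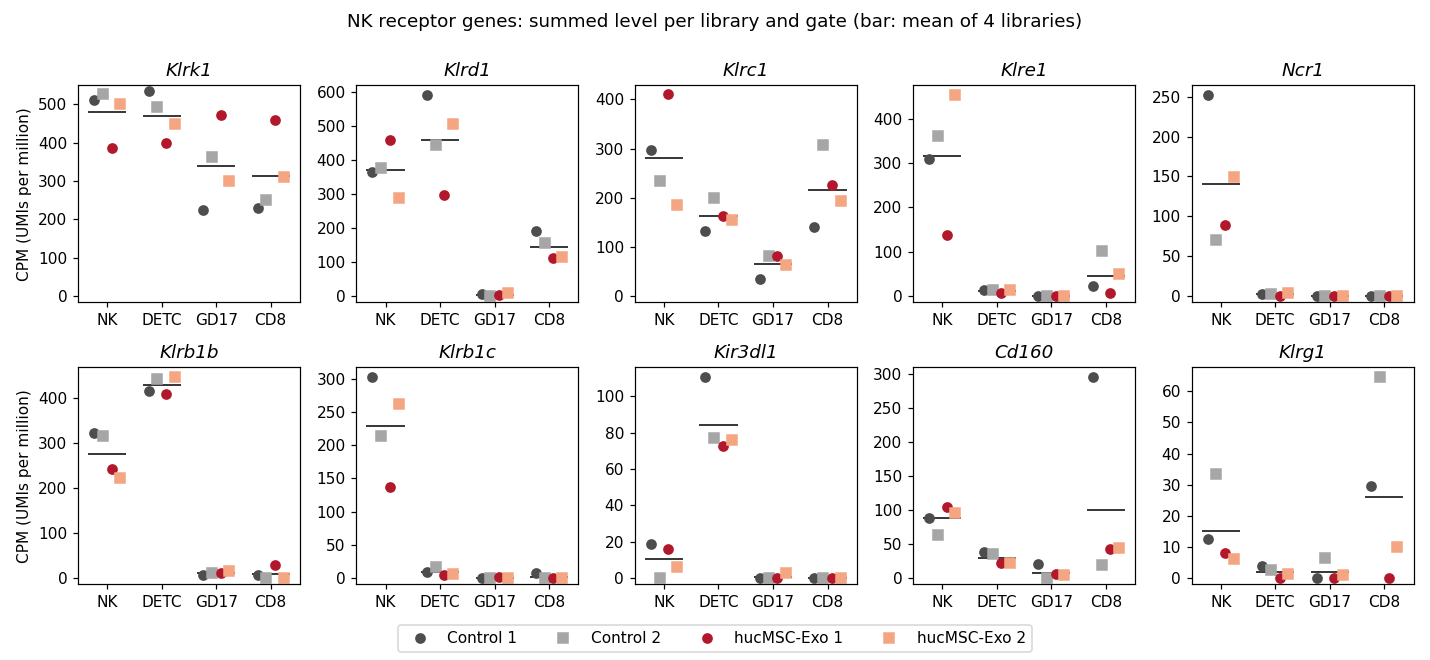
Level of each NK receptor gene (vertical axis, CPM, own scale per panel) in the NK, DETC, GD17 and CD8 gates; points are the 4 libraries and bars their mean. *Klrk1* overlaps in all 4 gates, *Klrd1* and *Klrb1b* are high in NK and DETC and near 0 in GD17, *Klre1*, *Klrb1c* and *Ncr1* stand out in NK, *Kir3dl1* in DETC, and *Cd160* in CD8 rests on 1 library at 295 CPM.

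Counted over the 9 members tested, NK cells were higher in 5 and lower in 1 against DETC, where 17.1% and 18.9% of all genes passed in those directions. Against GD17 they were higher in 8 and lower in 0 (16.5% and 14.8% of all genes), and against CD8 higher in 6 and lower in 0 (4.23% and 4.56%). DETC were higher than GD17 in 7 and lower in 0 (25.5% and 23% of all genes) and, against CD8, higher in 3 and lower in 3 (18% and 17.4%). DESeq2 called 4 of the 6 in DETC against CD8, the lower *Klrc1* and *Cd160* being lost. CD8 T cells were higher than GD17 in 4 and lower in 0 (12.7% and 10.5%). The median log2 difference of the members was 0.93 for NK against DETC, 4.49 for NK against GD17, 2.70 for NK against CD8, 3.44 for DETC against GD17, 1.503 for DETC against CD8 and 1.10 for CD8 against GD17, with medians of all genes between -0.02 and 0.04. These medians are a description, since the tested members passed the filter partly through the gate in which they are high and the fits of members at 0 to 3 UMIs in a gate depend on the method's prior count. A summed level alone cannot tell fewer expressing cells from less RNA per cell, which is why the shares stand beside it.

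**Figure D4:**
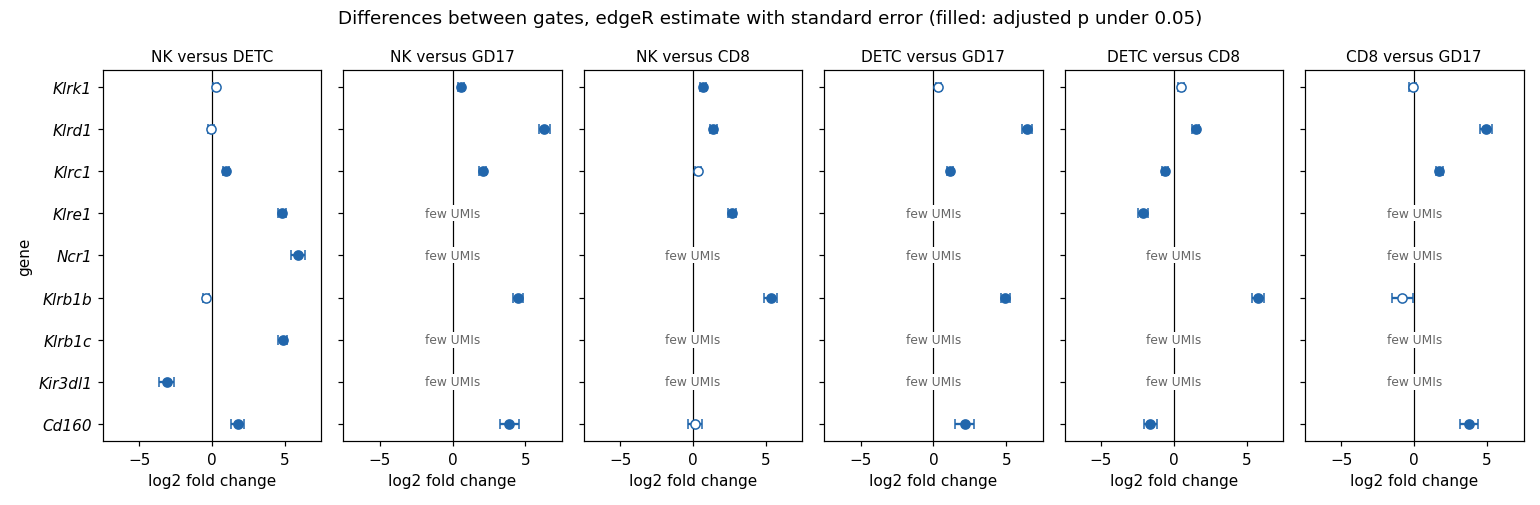
Log2 difference between gates for the 9 tested NK receptor genes (horizontal axis, edgeR estimate; bars are standard errors; filled points have an adjusted p under 0.05), 1 panel per pair of gates, with the first gate higher to the right. Where a gate of the pair held at most 3 UMIs of a gene, "few UMIs" is printed in place of a point. The points shown for NK against GD17 all lie right of 0 and are filled. DETC against CD8 has filled points for *Klrd1* and *Klrb1b* on the right and for *Klrc1*, *Klre1* and *Cd160* on the left.

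Within single cells the receptor chains were set side by side to see whether partner genes occur together. Of the 303 DETC with a *Klrc1* UMI 66.3% also had *Klrd1* (60.7% to 71.6%), and of the 78 such NK cells 67.9% did (56.4% to 78.1%). The same share was 41.8% of 67 CD8 T cells and 3.66% of 82 GD17 cells (0.761% to 10.3%), so most *Klrc1*-positive GD17 cells had no UMI of its partner chain. Cells without *Klrc1* had *Klrd1* in 72.8% of DETC, 72.3% of NK cells, 34.1% of CD8 T cells and 0.829% of GD17 cells. The share was thus lower with *Klrc1* than without it in DETC and NK cells and higher in CD8 and GD17 cells. Both GD17 shares rest on 3 cells (of 82 and of 362), and these differences were not tested. *Klrk1* and its adaptor gene *Hcst* were found together in 88.0% of 117 NK cells, 75.3% of 649 DETC, 71.7% of 286 GD17 cells and 88.9% of 81 CD8 T cells with *Klrk1*. In the corresponding cells without *Klrk1* the *Hcst* shares were 80.8%, 64.1%, 67.7% and 87.0%.

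The NKR-P1 pair was counted in the same cells. Of 86 NK cells with *Klrb1b* 62.8% also had *Klrb1c* (51.7% to 73.0%), and of 621 DETC with *Klrb1b* 2.74% did (1.60% to 4.35%). Per library the NK share ran from 26.7% (of 15 cells, hucMSC-Exo 1) to 78.9% (of 19 cells, hucMSC-Exo 2). In NK cells 74.5% of the 47 with *Ncr1* had *Klrb1c*, compared with 49.0% of the 96 without it, and their median depths were 5142 and 4485 UMIs. DETC with *Kir3dl1* (213 cells) had *Klrd1* in 80.8% of cases (74.8% to 85.8%), those without it (656 cells) in 67.2%, with median depths of 3826 and 3196.5 UMIs. *Kir3dl2*, the paralog of *Kir3dl1*, was seen in 23.9% of the former and 16.2% of the latter. The deeper cells were the ones with the first gene in each of these comparisons, and the part of depth in the higher shares was not tested.

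Of the 4 signalling adaptor genes, *Tyrobp* (DAP12) and *Fcer1g* helped to define the NK and DETC gates respectively, so their levels are not findings. *Hcst* and *Cd247*, which helped to define no gate, were both higher in DETC than in GD17 cells (25.5% of all genes). The counts with *Tyrobp* and *Fcer1g* (4 of 4 higher there, and 3 higher in NK than in GD17 cells) were partly fixed by the gates and are not results. *Cd247*, the zeta chain of the T cell receptor and of NKp46 signalling, had pooled levels of 534 CPM in DETC, 294 in GD17, 49.8 in CD8 and 45.4 in NK cells. It was higher in DETC than in CD8 T cells by 3.31 (log2, SE 0.21, adjusted p = 3.37e-11), and lower in NK cells than in DETC by 3.43 (-3.43, SE 0.22, adjusted p = 2.37e-11). *Hcst*, the NKG2D adaptor, had pooled levels of 690.1 CPM in CD8, 539 in NK, 478 in DETC and 332 in GD17 cells, and was higher in NK than in GD17 cells (0.83, SE 0.16, adjusted p = 2.52e-04) and in CD8 than in DETC (-0.65 for DETC against CD8, SE 0.15, adjusted p = 0.00130).

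Of 25 other NK receptor genes listed 13 could be tested. In NK cells 9 of them were higher and 3 lower than in DETC, where 17.1% and 18.9% of all genes passed. Against GD17 10 were higher and 1 lower (16.5% and 14.8% of all genes), and against CD8 likewise 10 and 1 (4.23% and 4.56%). DETC against GD17 gave 8 higher and 1 lower (25.5% and 23%). The median log2 difference of the 13 genes was 2.77 for NK against DETC, 6.17 for NK against GD17 and 3.88 for NK against CD8, beside -0.01, 0.03 and -0.02 over all genes. The *Klra* genes, which encode the Ly49 class I receptors, made up much of the NK side: *Klra4* had 183, 275, 161 and 454 CPM in the NK libraries and no UMI in the other 3 gates, and *Klra8*, the Ly49H receptor, had 296, 211, 209 and 281 CPM in NK cells against 4 UMIs in DETC and none in GD17 or CD8 cells. On the DETC side stood *Cd96*, a nectin-family receptor, with 267, 288, 256 and 328 CPM in DETC and 25.2, 26.8, 48.3 and 41.8 in NK cells (NK against DETC -2.89, SE 0.26, adjusted p = 4.21e-09), *Cd244a* (-0.96, SE 0.32, adjusted p = 0.0206) and *Kir3dl2*, with 67.3, 65.4, 41.5 and 71.8 CPM in DETC and 2 UMIs in NK cells. *Cd226*, an activating receptor of nectins, was the gene of this list that was lower in DETC than in GD17 (-3.98, SE 0.36, adjusted p = 3.79e-09), with 3.89 to 6.67 CPM in DETC and 62.0 to 74.5 in GD17 cells. The Ly49 genes are close paralogs, so reads may have moved between them.

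Of 16 ligand genes 3 could be tested between gates, *H2-T23* (Qa-1, the ligand of NKG2A), *Clec2d* (the ligand of the *Klrb1b* product) and *Cdh1* (E-cadherin, a ligand of KLRG1). *Cdh1* was the one that passed in DETC, with 159, 117, 101 and 138 CPM there. It was higher in DETC than in GD17 (3.55, SE 0.40, adjusted p = 9.15e-08) and CD8 cells (1.79, SE 0.40, adjusted p = 0.00101), and lower in NK cells than in DETC (-2.36, SE 0.44, adjusted p = 1.48e-04). *Clec2d* was lower in NK than in GD17 cells (-0.65, SE 0.23, adjusted p = 0.0364), and *H2-T23* passed in 0 of the 6 pairs of gates.

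Of 7 transcription factor genes 6 could be tested, of which *Eomes* helped to define the NK gate. *Tbx21* (T-bet) had 132, 90.5, 64.4 and 107 CPM in NK cells and 73.7, 49.3, 63.5 and 24.7 in CD8 T cells, but 0 to 4.23 in DETC and 0 to 2.06 in GD17 cells. NK cells exceeded DETC by 5.75 (SE 0.50, adjusted p = 3.40e-09), and DETC lay below CD8 T cells (-4.78, SE 0.57, adjusted p = 4.72e-07). *Runx3* had 409, 489, 386 and 406 CPM in NK cells, 579.8, 500.4, 529 and 532 in DETC, 237, 362, 315 and 326 in GD17 cells and 199, 304, 310.5 and 188 in CD8 T cells. It was higher in DETC than in GD17 (0.66, SE 0.15, adjusted p = 6.77e-04) and CD8 cells (0.96, SE 0.16, adjusted p = 5.40e-05) and in NK than in GD17 (0.50, SE 0.16, adjusted p = 0.0192) and CD8 cells (0.80, SE 0.18, adjusted p = 0.00382), while NK and DETC differed by -0.16 (SE 0.15, adjusted p = 0.456).

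The letters of the RUNX motif are shown where they occur upstream of starts that RefSeq gives for the members. The motif was chosen with the *Runx3* levels known. RefSeq promoters of GRCm38.p6, each 250 bases before to 50 after a start, were at hand for 8 of the 10 genes (12 promoters), and not for *Klrd1* and *Klrg1*. The letters TGTGGT were searched on both strands, so that a match on the opposite strand reads as ACCACA here. They were found in 6 of the 8 genes, in 8 of their 12 promoters, while 16.8% of 32851 promoters held them. The 2 *Ncr1* promoters overlap and hold the same 2 matches, so the promoters are not independent, and the share in the members was not tested against that of all promoters. The T-box letters GGTGTGA (3.98% of promoters) and the ETS letters CAGGAAG (13.3%) were each found in 1 promoter, of *Cd160* in both cases. Below, 30 bases around each RUNX match are printed 5′ to 3′ on the strand of the gene, with the matching letters in capitals. A match of letters is a description and not a site of binding.
Klrk1, chr6:129623976-129624005, minus strand: tgatagctgtgcTGTGGTtgtgtgggggtt
Klrc1, chr6:129679043-129679072, minus strand: gttgttgttgttACCACAgcactcgtattc
Klre1, chr6:129577972-129578001, plus strand: ttgtgtttaagcTGTGGTtccagagagtca
Klrb1c, chr6:128788713-128788742, minus strand: aggaaggaaagcTGTGGTcatggtgttttg
Ncr1, chr7:4337527-4337556, plus strand: ttagatccaaaaTGTGGTtaaatgtgttat
Ncr1, chr7:4337662-4337691, plus strand: caggcctcacccACCACAtcctgtgcatct
Cd160, chr3:96814605-96814634, minus strand: aaaaacccattcTGTGGTttttcaaagatc
Cd160, chr3:96829410-96829439, minus strand: tgatctctatcaACCACAcccacacaaacc
The matches lie 41 to 229 bases before the start that RefSeq gives for that promoter. For *Klre1*, *Klrb1c* and the *Cd160* match at chr3:96814605-96814634 that start, and the match itself, lie inside the gene position given above. *Klrb1b* and *Kir3dl1* had no such letters in their windows, so the 6 genes with the letters include members high in NK cells (*Ncr1*, *Klrb1c*, *Klre1*) as well as *Klrk1*, which was found in all 4 gates.

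To see which other genes share the members' profile, log2(CPM + 10) was correlated over the 16 sums of 4 gates and 4 libraries against 4471 other genes. The sums share libraries and gates, so the coefficients are a description. *Ncr1* was most like *Klra8* (r = 0.986), *Klri2* (0.977) and *Klrb1c* (0.976), and *Klrb1c* was most like *Klri2* (0.984), *Klra8* (0.977) and *Ncr1* (0.976). *Klre1* was most like *Gzma* (0.960), *Eomes* (0.959), both genes of the NK gate, and *Itga4* (0.956). *Klrd1* was most like *Ctsw* (0.982), which encodes cathepsin W, followed by *Nkg7* (0.970) and *Ptprc* (0.958). *Kir3dl1* was most like *Adamtsl3* (0.978), *Paqr5* (0.970) and *Adgrb2* (0.968), and *Klrb1b* was most like *Cxxc5* (0.967), *Anxa2* (0.956) and *Spry2* (0.949). *Klrc1* was most like *Tnfrsf18* (0.928), *Atp11b* (0.899) and its paralog *Klrc2* (0.894). The highest coefficients were lower for *Klrk1* (*Trappc6a*, 0.877, *Acly*, 0.840, *Rbm28*, 0.831) and *Cd160* (*Rpp21*, 0.864, *Mrpl52*, 0.857, *Metrnl*, 0.856).

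The study asked whether exosomes change the wound. The NK receptor genes were compared within each gate between the groups that the titles give (2 libraries against 2). No member passed in any gate by edgeR: 8 members were tested in NK cells, 7 in DETC, 2 in GD17 and 3 in CD8 T cells, with 0 at an unadjusted p under 0.05 and 0 by DESeq2. Of all genes 0% of 2142 passed in NK cells, 0% of 6871 in DETC, 0% of 4746 in GD17 and 0.0422% of 2372 in CD8 T cells. At an unadjusted p under 0.05 there were 58, 270, 147 and 111 genes in these gates, and DESeq2 called 4, 1, 1 and 1. With 2 libraries per group an exact permutation test cannot give a two-sided p under 0.333, so the fits rest on the spread shared across genes.

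The values behind this were as follows for *Klrk1*. In NK cells the control libraries had 510.3 and 526 CPM and the exosome libraries 386 and 501, a log2 change of -0.23 (SE 0.28). In DETC, 535 and 494 stood against 399.6 and 449 (-0.22, SE 0.18). In CD8 T cells, 229 and 250.4 stood against 459 and 311 (0.59, SE 0.32, unadjusted p = 0.0942, adjusted p = 0.999), and in GD17 cells 224 and 362 against 471 and 300.02 (0.34, SE 0.31). Grouped by the titles, the libraries did not overlap in NK, DETC and CD8 cells. The exosome libraries were lower in the first 2 gates and higher in the last, but none of these differences passed the test. Full separation of 2 against 2 libraries is what the permutation limit of 0.333 stands for. The share of all genes that separate in this way was not counted, and the gates come from the same mice. The difference of the treatment change between gates was tested with an interaction term over 5282 genes and 9 members. *Klrk1* changed by 0.86 less in NK than in CD8 cells (-0.86, SE 0.39, unadjusted p = 0.0382, adjusted p = 0.874) and by 0.87 less in DETC than in CD8 cells (-0.87, SE 0.37, unadjusted p = 0.0264). Neither passed, and 0 of the 9 members passed in any of the 6 contrasts between gates.

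For *Cd160* in DETC the control values of 38.5 and 36.0 CPM lay above the exosome values of 22.1 and 22.5 (log2 change -0.68, SE 0.31, unadjusted p = 0.0545, adjusted p = 1.00), the smallest unadjusted p among the members in the 4 gates. *Klrd1* in CD8 T cells had 192 and 156 CPM in the control group and 113 and 114 in the hucMSC-Exosomes group (-0.67, SE 0.37, unadjusted p = 0.0908), and *Klrb1b* in NK cells had 321 and 315 against 241 and 221 (-0.48, SE 0.29, unadjusted p = 0.137). None of these passed after adjustment. *Klrb1b* in DETC had 414 and 440.3 CPM against 409 and 445, a change of 0.05 (SE 0.18), and *Klrc1* in DETC changed by -0.01 (SE 0.26). *Cd160* in CD8 T cells did not pass the filter with all 4 libraries. Without Control 2 the fit called it lower in the exosome libraries (-2.83, SE 0.52, adjusted p = 4.37e-05), which sets the single value of 295 CPM in Control 1 against 42.3 and 44.5 and leaves out the 19.0 CPM of Control 2.

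**Figure D5:**
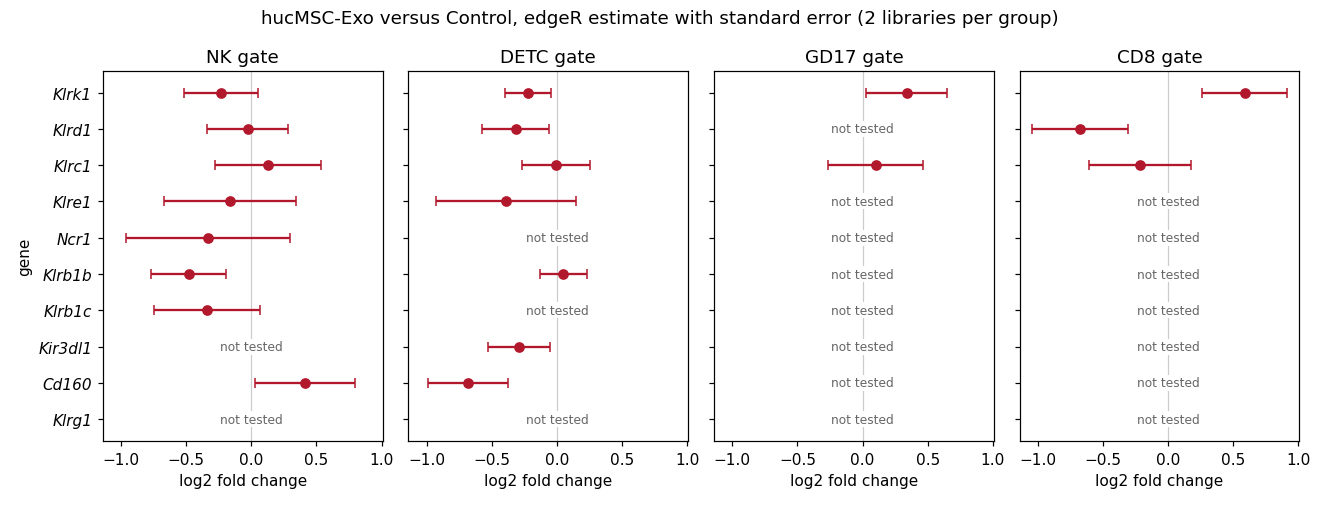
Log2 fold change of the NK receptor genes, hucMSC-Exo against Control, in the NK, DETC, GD17 and CD8 gates (horizontal axis; points are edgeR estimates from 2 libraries per group, bars standard errors). 8, 7, 2 and 3 genes could be tested, estimates lie between -0.68 and 0.59, and none passed the adjusted threshold.

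The partner lists gave the same count within the gates: 0 of the adaptor, other NK receptor, ligand and transcription factor genes tested passed between the groups in NK, DETC, GD17 or CD8 cells.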

How the data were processed

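Single-cell suspensions of periwound skin were run on the 10x Genomics 3′ platform. Per the labels and the study's methods the authors aligned reads to mm10 with Cell Ranger 6.1.2 and deposited UMI counts per gene and cell, 1 table per library (4 libraries, 2 groups, 1 mouse each). The deposited tables hold 7178 barcodes, fewer than the cell numbers in the study's text. The study's limits of 200 to 3000 genes and 10% mitochondrial UMIs left 6443 cells. Doublets were called per library with Scrublet in scanpy 1.11.5 and marked 30 cells (0.466%), too few to count as a working caller, so none was removed. Clusters (Leiden, resolution 1.0) were made without the members and were an alternative to the marker gates, holding 86.0% of the NK, 92.5% of the DETC, 98.6% of the GD17 and 65.2% of the CD8 gate. In turn 66.5% of the NK, 78.4% of the DETC, 52.1% of the GD17 and 55.7% of the CD8 cluster cells lay in the gate. Results in unsupervised clusters therefore concern partly other cells.

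UMIs were summed per library and gate (at least 10 cells) and tested with edgeR 4.0.16 in R 4.3.3 (TMM, filterByExpr, quasi-likelihood test, Benjamini-Hochberg, threshold 0.05): all 16 sums in 1 model with library as a block for gates, and the 4 sums of a gate for treatment. DESeq2 1.42.0 was an alternative, beside other size factors, no filter, other gates, doublet removal, a higher gene limit and each library left out. The scripts were tested on simulated data. All members were named whatever their values, partner genes by fixed lists and like genes as the 3 with the highest r. The members and lists were chosen with earlier results of these data known. Low-count ratios, the interaction term, the crossed block, and the Foxp3, dendritic cell and type 2 innate lymphoid gates were added after the data were seen. Labels give libraries as replicates. The p-values between gates rest on the spread left between the 4 libraries after the library block. Those for treatment rest on the spread between libraries within a group, and both use information shared across genes. Promoter sequences came from RefSeq (GRCm38.p6). Protein sequences were not used here. Shares carry 95% exact Clopper-Pearson intervals, except that a count of 0 is given with the limit of 3 cells of the total.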

Additional observations from a re-analysis of the deposited data

Results flagged for a closer look

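Levels of NK receptor genes above those of the neutrophil and macrophage gates were found in cells that belong to no comparison above. *Klrd1* had 402 CPM over the 63 cells of a dendritic cell gate (no *Cd3*, with *Flt3* and *Cd209a*), with 237, 372, 855 and 274 CPM per library (controls first) and a UMI in 77.8% of cells. *Klrk1* had 115 CPM in the same gate (148, 84.4, 175 and 114) and was found in 47.6% of cells, and their median depth was 9956 UMIs. These values rest on 8, 22, 12 and 21 cells per library. *Klrk1* had 182 CPM in 97 cells of a type 2 innate lymphoid gate (no *Cd3*, with *Gata3* and *Il1rl1*, *Il13* or *Calca*), with 134, 218, 200.2 and 70.2 CPM per library, from 8, 20, 57 and 12 cells.

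CD4 T cells were divided by a UMI of *Foxp3*, the regulatory T cell factor. *Klrg1* had 277 CPM in the 110 cells with *Foxp3* (162, 324, 183 and 312 per library) and a UMI in 51.8% of them, with 8, 47, 24 and 31 cells per library, against 6.17% of the 243 cells without *Foxp3*. In the cells without *Foxp3*, *Klrk1* had 118 CPM (170, 122, 175 and 51.0) and *Klrc1* had 109 CPM (81.7, 144, 114 and 68.0). These gates were set after the data were seen, their differences were not tested, and the part of free RNA in these levels was not tested.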

How the results depend on the processing

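Limits: the NK, DETC, GD17 and CD8 gates held as few as 25 cells in a library, GD17 and CD8 levels of *Klre1*, *Klrb1c*, *Kir3dl1* and *Ncr1* rest on 0 to 41 UMIs, and the treatment fits rest on 2 libraries per group. Between gates, 591 alternative log2 differences kept their direction and their side of the threshold, 24 lost a call, 11 gained one and 13 reversed. For treatment 228 kept both and 28 reversed. The lost and gained calls stand beside the genes in the text. The causes were not tested.

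In unsupervised clusters the reversed differences were DETC against GD17 for *Ncr1* (-1.71), DETC against CD8 for *Klrb1c* (-1.23) and *Ncr1* (-3.55, adjusted p = 0.0487, past the threshold in the other direction), CD8 against GD17 for *Klrk1* (0.34), and the treatment changes in NK of *Klrd1* (0.0066), *Cd160* (-0.10) and *Ncr1* (0.28), in DETC of *Klre1* (0.058) and in CD8 of *Klrc1* (0.015). With cells over 3000 genes kept they were *Ncr1* in DETC against CD8 (-0.21) and, for treatment in NK, *Klrd1* (0.20) and *Klrb1c* (0.010). Differences that stayed called were smaller in unsupervised clusters for *Ncr1* in NK against GD17 (5.32) and CD8 (3.48), *Klrb1c* in NK against CD8 (3.49), *Kir3dl1* in DETC against CD8 (3.95), and *Klrb1c* (1.60) and *Cd160* (0.97) in DETC against GD17. *Cd160* in NK against CD8 was -0.012 without the highest 10% of doublet scores and -0.029 with no library block. *Klrc1* for treatment in DETC was 0.0041 by DESeq2, 0.0071 with DESeq2 size factors, 0.0024 with no filter, 0.058 with cells over 3000 genes, 0.067 without the highest doublet scores and 0.024 with the replicate block. *Klrc1* in GD17 was -0.016 without those scores, and *Klrd1* in NK was 0.015 with *Trdc* cells left out.

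With each library left out in turn, *Klrd1* in NK against DETC ran from -0.38 to 0.051, *Cd160* in NK against CD8 from -0.15 to 1.37 and *Klrk1* in CD8 against GD17 from -0.20 to 0.012. The treatment changes ran, in NK, from -0.37 to 0.23 for *Klrd1*, -0.51 to 0.56 for *Klrc1*, -1.38 to 0.43 for *Klre1*, -0.98 to 0.041 for *Klrb1c* and -1.08 to 0.76 for *Ncr1*. In DETC they ran from -0.73 to 0.016 for *Klrd1*, -0.32 to 0.38 for *Klrc1*, -1.01 to 0.065 for *Klre1* and -0.035 to 0.15 for *Klrb1b*. For *Klrc1* they ran from -0.20 to 1.12 in GD17 and -0.64 to 0.47 in CD8. The lone library of a group is assumed to vary like the others. The members called for treatment in CD8 numbered 0 to 1, the 1 being *Cd160* without Control 2.

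Genes called for treatment in NK, DETC, GD17 and CD8 numbered 23, 34, 15 and 26 with no filter and 4, 1, 1 and 1 by DESeq2, and 11 to 20, 0 to 115, 0 to 64 and 2 to 31 with a library left out. Between gates, leaving a library out gave 919 to 1370 genes for NK against GD17 (1402 with all), 244 to 314 for NK against CD8 (393), 1032 to 1588 for DETC against CD8 (1582) and 596 to 949 for CD8 against GD17 (1037).

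The labels do not say that the replicate numbers of the titles mark a shared batch, and each library is another mouse. Deviations of libraries with the same number correlated at -0.115 in NK, 0.105 in DETC, 0.0537 in GD17 and 0.0409 in CD8, so the numbers were not taken to pair libraries. With the replicate block 0 members were called in each of the 4 gates, beside 1 gene in DETC and 4 in CD8, and with the crossed pairing in NK 0 members and 0 genes. The share of cells with a UMI was set against the neutrophil and macrophage gates by its 95% exact interval. The lower end lay above the upper ends of both background gates for 27 of 40 gene and gate pairs. After thinning this held for 22 pairs, and in unsupervised clusters for 31.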
